A study of Mus musculus with 32 samples.

Results

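Kruppel-like factors (KLFs) are DNA-binding proteins with a conserved block of zinc fingers at the C-terminus, which bind GC-rich and CACCC-type sequences shared with the related SP proteins. Most KLFs recruit corepressors or histone acetyltransferases through their divergent N-terminal parts, so that family members can act as activators, as repressors or as both. In macrophages, Klf2 and Klf4 are known as restraints on nuclear factor kappa B-driven transcription, whereas Klf6 is known to promote it. Here, 10 of the 25067 genes in the count table were followed: the related pairs Klf2 and Klf4, Klf6 and Klf7, and Klf10 and Klf11, together with Klf3, Klf9, Klf13 and Klf16. They were chosen by name, and each was represented by the RefSeq transcript with the highest mean count. All 10 were among the 11186 genes that were tested, namely those with a mean above 1 RPKM (read counts scaled to transcript length in kilobases and to library size) in at least 1 group.

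RNA was sequenced from bone marrow-derived macrophages (BMDMs) of male C57Bl6/J mice aged 6-12 weeks, grown for 7 days with L929-conditioned medium, in 32 libraries. BMDM-WT cells came from wild-type littermates and BMDM-Nur77-KO cells from mice in which the Nur77 gene, Nr4a1, had been deleted in the whole body with a CMV promoter-driven Cre, after which the Cre transgene was bred out. The labels nevertheless give the knockout genotype as "cre". Both genotypes were collected without stimulation (0 h) and after 1, 5 and 18 h of 100 ng/ml lipopolysaccharide (LPS), a bacterial cell wall component sensed by Toll-like receptor 4, with 4 libraries for each genotype and time. Wells were seeded in 4 replicates and the number of animals is not given, so the p-values below measure only the spread between these samples, which may be technical. In such bulk samples, fewer cells of a type and less RNA per cell cannot be told apart.

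Nr4a1 itself was reduced but still detected in the libraries labelled BMDM-Nur77-KO. At 0 h, its CPM values (counts scaled to library size) were 19.5, 15.5, 25.8 and 18.2 in BMDM-WT and 4.93, 4.63, 4.46 and 7.03 in BMDM-Nur77-KO (log2 fold change -1.90, SE 0.19, adjusted p = 1.6e-08). At 1 h, the ranges were 359.6 to 486 and 147 to 243 CPM (log2 fold change -1.20, SE 0.15, adjusted p = 1.9e-06), and at 5 and 18 h all libraries of both genotypes were at or below 1.06 CPM. The counts cover the whole transcript, and which exons were removed is not given in the sources used here. The 7 macrophage markers summed to 10826 to 18459 CPM per library. Markers of other cells were not all near 0. The 7 neutrophil markers summed to 15.6 to 45.7 CPM, mainly from S100a8, S100a9 and Ngp, with Ly6g at most 0.127 CPM. The 4 T cell markers in the table reached 38.3 CPM, with Lck alone at up to 38.3 CPM and Cd3e at most 0.418 CPM. The 5 endothelial markers reached 28.2 CPM, mainly from Kdr (up to 27.1 CPM), with Tie1 at most 0.152 CPM, and the 4 dendritic cell markers reached 26.8 CPM, mainly from Xcr1 (up to 21.0 CPM) and Clec9a (up to 16.4 CPM), with Flt3 at most 0.302 CPM. The B cell, fibroblast, erythroid and mast cell markers each summed to at most 3.03 CPM. Counts assigned to the kept transcripts ranged from 8742362 to 15780926 per library. Replicate 1 of BMDM-Nur77-KO at 5 h stood apart from its group, with a median correlation of log CPM of 0.958 to its replicates, compared with 0.980 or more for every other library. Replicate 2 of that group lay between replicate 1 and replicates 3 and 4 for Klf3, Klf6, Klf7, Klf9, Klf13 and Klf16. This was not so for Klf2, Klf4, Klf10 and Klf11. The next lowest correlation, 0.980, was that of replicate 4 of BMDM-Nur77-KO at 18 h. That library was the highest of its group for Klf3, Klf6, Klf9, Klf10 and Klf11 and the lowest for Klf2, Klf4, Klf13 and Klf16.

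All p-values below were obtained with the quasi-likelihood test of edgeR, adjusted by the Benjamini-Hochberg method over the 11186 genes, and a change was called at an adjusted p below 0.05. A log2 fold change between genotypes is BMDM-Nur77-KO relative to BMDM-WT, and its standard error (SE) comes from the fit over all 32 libraries.

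Per length of transcript, Klf6 was the most abundant of the 10 genes in each of the 8 groups. Its mean rose from 70.2 RPKM in unstimulated BMDM-WT to 449 at 5 h, and from 87.3 to 545 RPKM in BMDM-Nur77-KO. Klf6 thereby made up 53.9% of the summed RPKM of the 10 genes in unstimulated BMDM-WT and 90.2% in BMDM-Nur77-KO at 5 h. Klf10 and Klf13 followed at 0 h in both genotypes, at 18.9 and 15.6 RPKM in BMDM-WT. Klf7 and Klf11 were at the low end, with Klf7 between 0.124 and 2.33 RPKM over the 8 groups. The position of Klf4 depended on genotype at 18 h: it ranked 7 of 10 in BMDM-WT with 3.31 RPKM, below Klf2 with 5.28 RPKM, and ranked 3 of 10 in BMDM-Nur77-KO with 16.2 RPKM, where Klf2 had 3.76 RPKM.

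**Figure D1:**
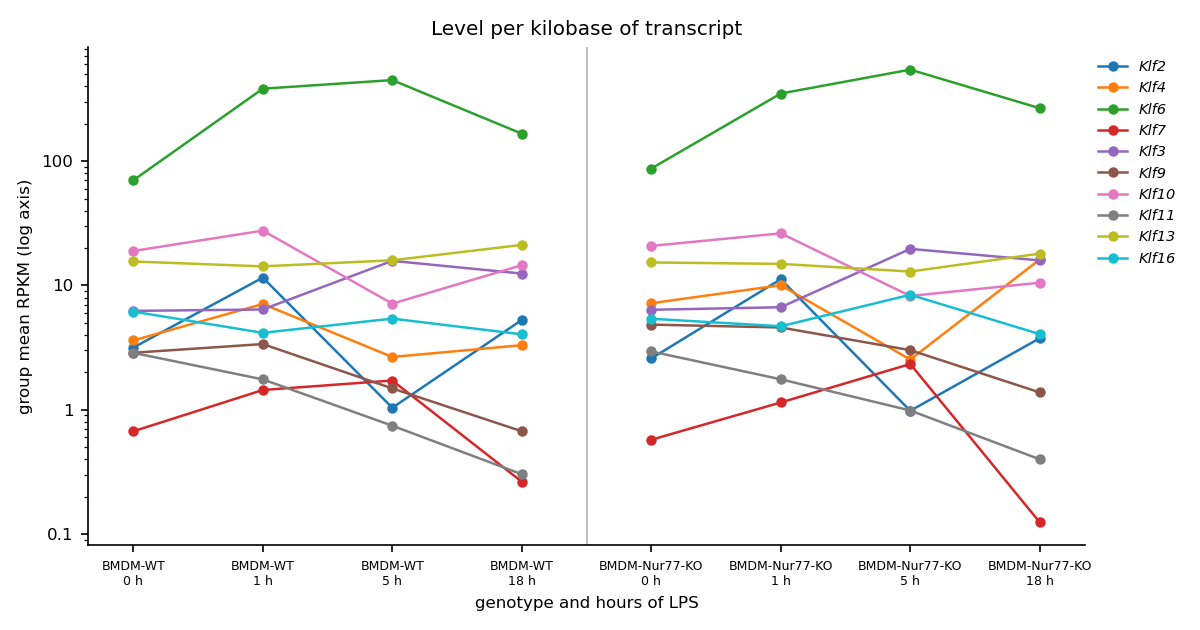
Group mean RPKM (log axis) of the 10 KLF genes for each genotype and time of LPS, each mean over 4 libraries. Klf6 lies above the other genes in every group, from 70.2 to 545 RPKM, and Klf4 reaches 16.2 RPKM in BMDM-Nur77-KO at 18 h compared with 3.31 in BMDM-WT.

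To compare the genotypes, the 10 genes were tested at each time of LPS exposure. Klf4 and Klf9 were higher in BMDM-Nur77-KO before stimulation, and no member was lower. Of the 10 genes, 2 were called at 0 h, where 12.7% of all tested genes were called. At 1 h, 1 member (Klf4) was called, again higher, with 6.53% of all genes called. At 5 h, Klf7, Klf9 and Klf16 were called, all higher, with 24.4% of all genes called. That share depended on the fit, with 1533 genes higher and 1197 lower over all 32 libraries. Fitting the 5 h groups alone gave 227 higher and 177 lower. Leaving out knockout replicate 1, which stood apart, gave 812 and 682. Fitting only the groups compared also lowered the counts at 18 h (893 and 716). It raised them at 0 h (1239 and 1174) and 1 h (867 and 856). The shares quoted for the lists below come from the fit over all libraries. At 18 h, 4 members were higher (Klf3, Klf4, Klf6 and Klf9) and 2 were lower (Klf7 and Klf10), and 21.7% of all genes were called. In the order 0, 1, 5 and 18 h, the median log2 fold change of the 10 genes was 0.04, 0.02, 0.30 and 0.18, beside -0.03, -0.00057, 0.02 and -0.01 over all tested genes. The libraries of both genotypes did not overlap for 3, 4, 2 and 6 members at 0, 1, 5 and 18 h, against 22.7%, 19.4%, 19% and 21.1% of all tested genes.

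**Figure D2:**
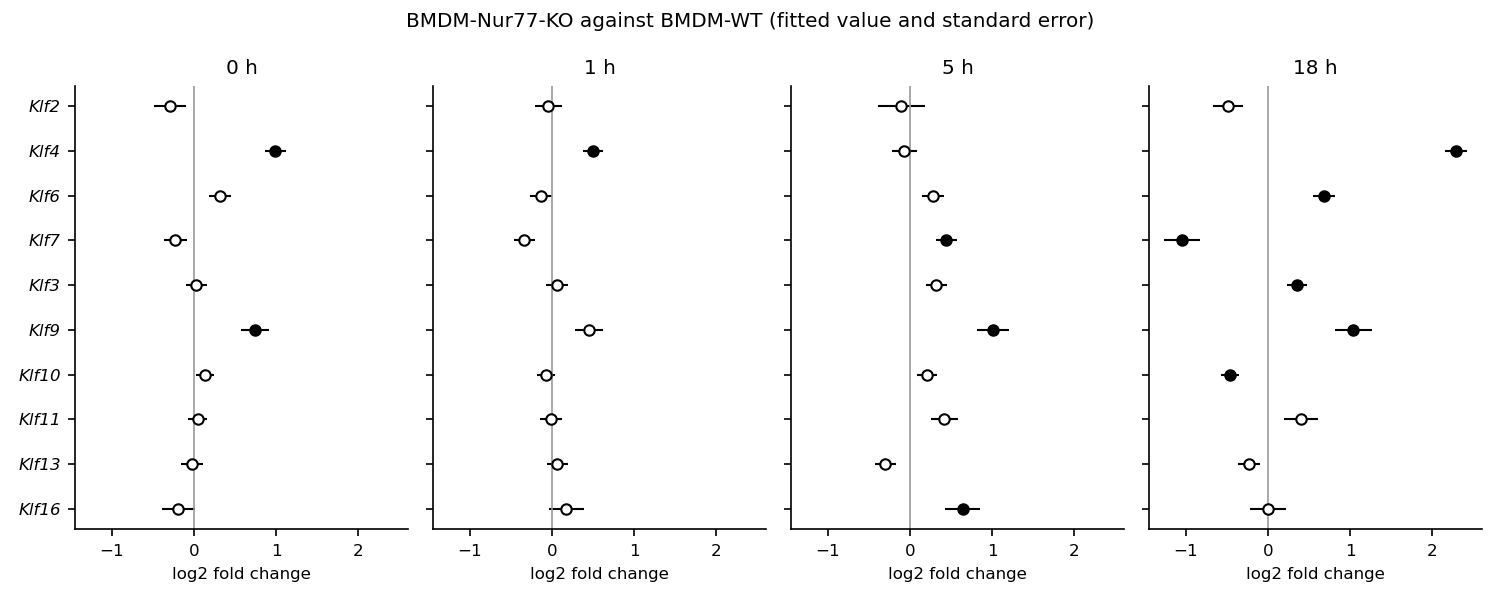
Log2 fold change of BMDM-Nur77-KO relative to BMDM-WT for the 10 KLF genes at 0, 1, 5 and 18 h of LPS; points are fitted values, bars their standard errors, and filled points have an adjusted p below 0.05. Klf4 at 18 h (2.29) is the highest value and Klf7 at 18 h (-1.05) the lowest.

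Klf4 (chr4:55527137-55532475 on mm10), which restrains inflammatory gene expression and is also needed for monocyte differentiation, showed the highest genotype difference of the family. In unstimulated BMDM-WT it was counted at 8.88, 13.2, 11.1 and 10.6 CPM, and in BMDM-Nur77-KO at 19.2, 23.2, 23.7 and 21.1 CPM (1.98-fold, log2 fold change 0.99, SE 0.13, adjusted p = 2.1e-06). Every unstimulated knockout library lay above every unstimulated wild-type library. At 1 h, BMDM-WT had 20.9, 22.7, 21.1 and 21.3 CPM and BMDM-Nur77-KO 30.6, 31.3, 28.0 and 31.9 CPM (1.42-fold, log2 fold change 0.50, SE 0.12, adjusted p = 0.0086). At 5 h the genotypes overlapped, at 7.02, 8.41, 9.73 and 7.07 CPM in BMDM-WT and 7.80, 7.53, 6.87 and 8.52 CPM in BMDM-Nur77-KO (log2 fold change -0.07, SE 0.15, adjusted p = 0.75). At 18 h they were again separate: 8.69, 10.1, 12.7 and 8.63 CPM in BMDM-WT and 44.9, 45.1, 62.4 and 43.8 CPM in BMDM-Nur77-KO (4.89-fold, log2 fold change 2.29, SE 0.13, adjusted p = 4.7e-14). The 18 h difference remained between 2.15 and 2.43 on the log2 scale in every alternative analysis, including the omission of each 18 h library.

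The response of Klf4 to LPS was then followed within each genotype. In BMDM-WT, Klf4 rose at 1 h (log2 fold change 0.97, SE 0.13, adjusted p = 5.8e-07), was lower than unstimulated at 5 h (log2 fold change -0.45, SE 0.14, adjusted p = 0.0064) and did not differ from the unstimulated level beyond the spread at 18 h (log2 fold change -0.13, SE 0.14, adjusted p = 0.39). The call at 5 h was lost after a correction for GC content (-0.20, adjusted p = 0.282). In BMDM-Nur77-KO, Klf4 rose at 1 h (0.48, adjusted p = 0.0057), and the difference between the 2 responses was not called (log2 fold change -0.49, SE 0.18, adjusted p = 0.42). It then fell below the unstimulated level at 5 h (log2 fold change -1.51, SE 0.14, adjusted p = 3.3e-11) and was 6.39-fold higher at 18 h than at 5 h. The genotype-by-LPS interaction, which tests whether the change from 0 h differs between genotypes, was called at 5 h (log2 fold change -1.06, SE 0.20, adjusted p = 0.0017) and at 18 h (log2 fold change 1.30, SE 0.18, adjusted p = 8.4e-06). Both calls were kept in every alternative analysis.

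Beside these 18 h values, the summed level of the 4 dendritic cell markers was 5.18 to 7.12 CPM in BMDM-WT and 13.4 to 21.7 CPM in BMDM-Nur77-KO, mostly from Clec9a with a mean of 3.52 and 12.1 CPM, whereas Flt3 was at 0.0454 and 0 CPM. The 7 macrophage markers summed to 13785 to 14383 CPM in BMDM-WT and 10826 to 12314 CPM in BMDM-Nur77-KO at 18 h. Mertk went the other way, with means of 318 and 512 CPM, and the other markers of this list had lower means in BMDM-Nur77-KO. At 5 h the macrophage markers were also separate, at 15000 to 16322 and 12733 to 14861 CPM, as were the endothelial markers, at 17.3 to 21.0 CPM in BMDM-WT and 7.15 to 9.64 in BMDM-Nur77-KO. At 1 h the neutrophil markers summed to 24.9 to 33.7 CPM in BMDM-WT and 36.9 to 45.0 in BMDM-Nur77-KO. Other lists that separated the genotypes at 0 or 1 h did so at sums of at most 2.08 CPM. The part of these shifts in the results of the family was not tested.

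Klf2 (chr8:72319062-72321654), the closest relative of Klf4 in function and a mediator of quiescence in endothelial and myeloid cells, showed no called genotype difference. At 0 h it was counted at 4.21, 6.47, 7.59 and 5.10 CPM in BMDM-WT and 4.39, 5.08, 4.46 and 5.19 CPM in BMDM-Nur77-KO, and at 1 h at 25.2, 19.4, 20.7 and 20.2 and 23.3, 21.0, 18.8 and 19.9 CPM. At 5 h the values were 1.93, 1.71, 3.09 and 0.943 CPM and 1.73, 1.17, 2.29 and 2.06 CPM. In both genotypes, all 1 h libraries lay above, and all 5 h libraries below, the unstimulated libraries. At 18 h, BMDM-WT had 8.78, 10.7, 8.17 and 11.4 CPM and BMDM-Nur77-KO 6.44, 7.83, 8.25 and 5.30 CPM, with overlapping ranges (log2 fold change -0.48, SE 0.18, adjusted p = 0.058). This difference had an adjusted p of 0.034 with DESeq2 and 0.0483 after GC correction, and was also called without replicate 3 of BMDM-Nur77-KO (0.0405) or replicate 3 of BMDM-WT (0.0348). The early rise of Klf2 was 3.64-fold in BMDM-WT and 4.32-fold in BMDM-Nur77-KO, and the decline from 1 to 5 h 11.0-fold and 11.5-fold (adjusted p = 7.2e-15 and 3.2e-15). The interaction was not called at any time (log2 differences of 0.25, 0.19 and -0.19, with SEs of 0.25, 0.35 and 0.27).

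The promoter-proximal sequences of Klf2 and Klf4, which share the rise at 1 h and the trough at 5 h, are shown together with that of Klf9, whose genotype difference is described next. The windows run from 250 to 51 bases before the RefSeq transcription start on GRCm38.p6, 5′ to 3′ on the strand of the gene: chr8:72318812-72319011 on the plus strand, chr4:55532526-55532725 on the minus strand and chr19:23140976-23141175 on the plus strand. Capitals mark matches, on either strand, to AP-1 (TGANTCA), the CRE core (TGACG), full CRE (TGACGTCA), the kappaB consensus, the CArG box bound by serum response factor, the MEF2 consensus and the Nur77 response element NBRE (AAAGGTCA).
Klf2: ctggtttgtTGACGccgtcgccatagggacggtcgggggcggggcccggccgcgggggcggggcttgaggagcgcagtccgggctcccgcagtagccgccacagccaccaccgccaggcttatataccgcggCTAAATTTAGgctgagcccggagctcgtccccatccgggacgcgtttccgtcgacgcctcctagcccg
Klf4: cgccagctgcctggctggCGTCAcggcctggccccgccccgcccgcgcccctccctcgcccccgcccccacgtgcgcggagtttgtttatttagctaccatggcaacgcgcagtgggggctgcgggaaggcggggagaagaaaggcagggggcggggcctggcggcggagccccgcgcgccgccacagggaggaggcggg
Klf9: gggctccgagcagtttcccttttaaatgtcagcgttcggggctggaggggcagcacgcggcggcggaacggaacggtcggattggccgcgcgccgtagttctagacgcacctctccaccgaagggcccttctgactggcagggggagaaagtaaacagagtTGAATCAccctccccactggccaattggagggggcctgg
The Klf2 window held a MEF2 consensus match, CTAAATTTAG, 118 to 109 bases before the start, and a CRE core 241 to 237 bases before it. The Klf4 window held a CRE core on the opposite strand, 232 to 228 bases before the start. Klf9 had an AP-1 match, TGAATCA, 89 to 83 bases before the start. Of 32851 RefSeq windows of the same length, 1.33% held the MEF2 consensus, 12.7% the CRE core and 5.57% the AP-1 motif. Windows of 8 members were found. That of Klf7 (chr1:64121440-64121639, minus strand) lies inside the interval of the gene given below, so it precedes a start downstream of the outermost annotated one. None of them held an NBRE (1.08% of all windows), a full CRE (0.828%), a kappaB consensus (5.71%) or a CArG box (1.16%). Klf13 held a CRE core 56 to 52 bases before the start, and the windows of Klf3, Klf6, Klf7 and Klf11 held none of the capitalised motifs. The GC box (GGGCGG, 24.6% of windows) was present in each of the 8 windows except that of Klf9. The 8 windows held 62% to 79% GC, however, beside a median of 51.5% over all windows. All motifs given are matches of letters and not bound sites.

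Klf9 (chr19:23141226-23168129), a glucocorticoid- and thyroid hormone-inducible member that acts mainly as a repressor, was higher in BMDM-Nur77-KO at 3 of the 4 times. At 0 h it was counted at 11.9, 15.9, 11.7 and 12.1 CPM in BMDM-WT and 24.4, 21.4, 23.2 and 17.9 CPM in BMDM-Nur77-KO (1.68-fold, log2 fold change 0.74, SE 0.17, adjusted p = 0.0031). At 1 h the libraries did not overlap, at 14.2 to 16.7 and 19.5 to 21.8 CPM, but the difference was not called (log2 fold change 0.45, SE 0.17, adjusted p = 0.13), except when only the 1 h groups were fitted (adjusted p = 0.00136) or GC content was corrected for (0.034). At 5 h, BMDM-WT had 7.25, 4.87, 8.18 and 6.36 CPM and BMDM-Nur77-KO 18.4, 13.6, 9.74 and 12.4 CPM (2.02-fold, log2 fold change 1.01, SE 0.19, adjusted p = 4.4e-04). Replicate 1 of BMDM-Nur77-KO, which stood apart, was the highest of these, and without it the log2 fold change was 0.83 (adjusted p = 0.00289). At 18 h, the values were 2.83, 2.29, 4.34 and 2.59 CPM and 4.47, 4.89, 6.99 and 8.39 CPM (2.06-fold, log2 fold change 1.04, SE 0.22, adjusted p = 7.0e-04). Without replicate 4 of BMDM-Nur77-KO, the highest of these, the log2 fold change was 0.86 (adjusted p = 0.00653). The lowest knockout library at 18 h was just above the highest wild-type library.

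LPS lowered Klf9 in both genotypes from 5 h onwards. Relative to 0 h, it was 1.94-fold lower at 5 h and 4.27-fold lower at 18 h in BMDM-WT (adjusted p = 6.0e-05 and 2.4e-10), and 1.61-fold and 3.48-fold lower in BMDM-Nur77-KO (adjusted p = 8.0e-04 and 3.9e-10). The interaction was not called, with log2 differences of -0.30, 0.27 and 0.30 and SEs of 0.24 to 0.28. Of 7 glucocorticoid-induced genes listed beside Klf9, 6 were tested. None was called between genotypes at 0 or 1 h, 2 were lower in BMDM-Nur77-KO at 5 h (Dusp1, which encodes a MAP kinase phosphatase, log2 fold change -0.99, and the kinase gene Sgk1, -0.54), and 4 were higher and 1 lower at 18 h, beside the 12.7%, 6.53%, 24.4% and 21.7% of all tested genes called at the 4 times. Those with the greatest changes at 18 h were Nr3c1, the glucocorticoid receptor (0.70, adjusted p = 3.3e-05), Tsc22d3 (-0.56, adjusted p = 0.0016) and the clock gene Per1 (0.40, adjusted p = 0.0098). The median of the 6 was -0.0039, -0.04, -0.37 and 0.37 at 0, 1, 5 and 18 h.

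**Figure D3:**
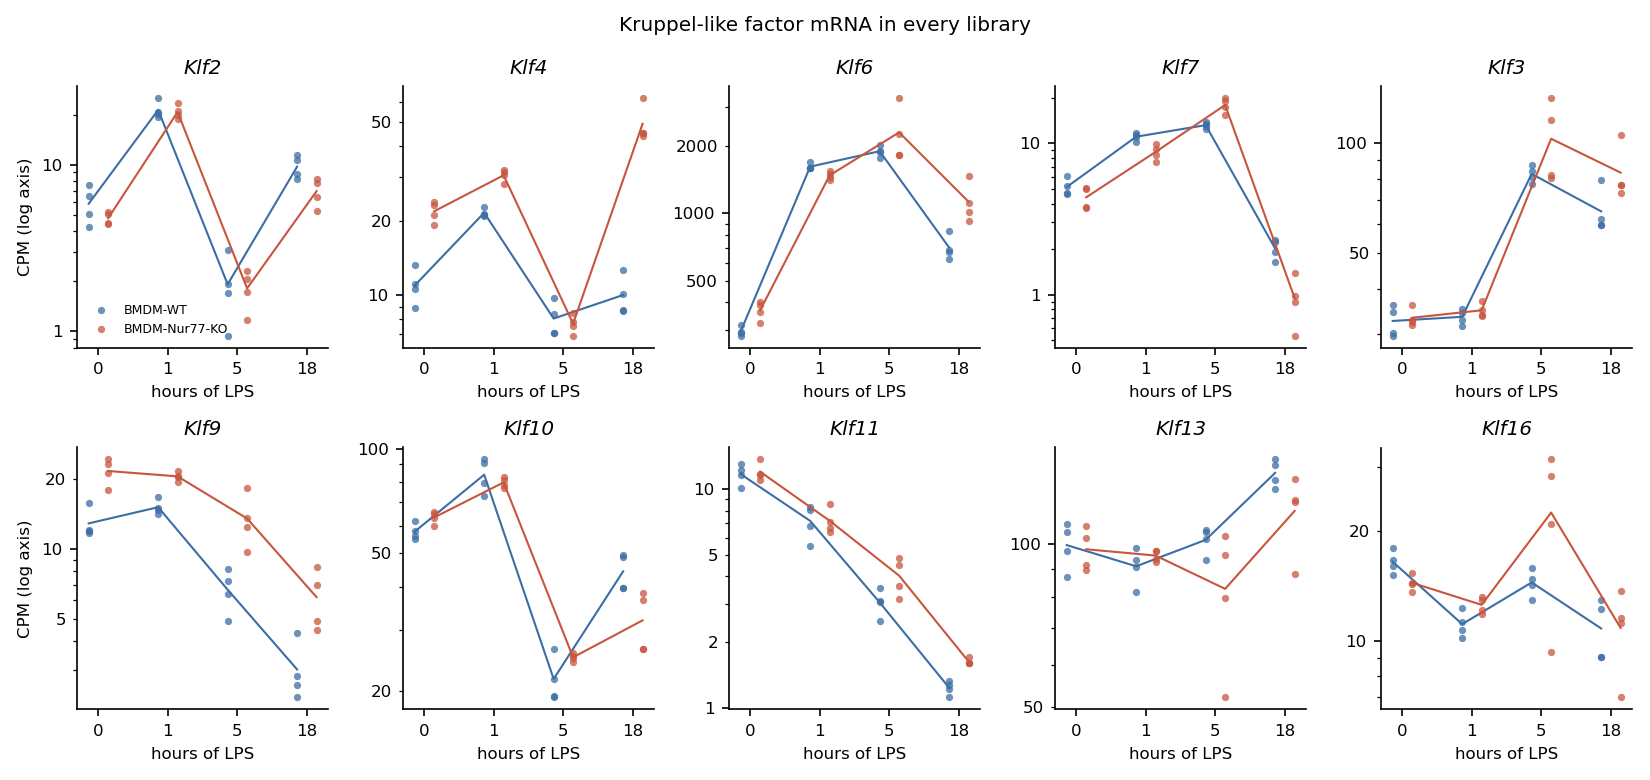
CPM of each library (points, log axis) and group means (lines) for the 10 KLF genes by hours of LPS in BMDM-WT (blue) and BMDM-Nur77-KO (red), 4 libraries per group. The Klf4 libraries of BMDM-Nur77-KO lie at 43.8 to 62.4 CPM at 18 h, above all BMDM-WT libraries at 8.63 to 12.7 CPM.

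Klf6 (chr13:5861489-5870393), a zinc-finger activator that is induced by inflammatory stimuli, was among the strongest early risers and was called higher in BMDM-Nur77-KO at 18 h. Its CPM at 0 h was 294, 317, 291 and 284 in BMDM-WT and 399.8, 362, 388 and 324 in BMDM-Nur77-KO. These ranges did not overlap, but the difference was not called (log2 fold change 0.31, SE 0.14, adjusted p = 0.13), except when only the 0 h groups were fitted (adjusted p = 0.0108). At 1 h it was 1587 to 1694 and 1409 to 1548 CPM, with every knockout library below every wild-type library and no call (log2 fold change -0.13, SE 0.13, adjusted p = 0.73). At 5 h BMDM-WT had 1896, 1774, 1886 and 2028 CPM and BMDM-Nur77-KO 3284, 2273, 1829.7 and 1822 CPM, where replicate 1 was again the highest (log2 fold change 0.28, SE 0.13, adjusted p = 0.12). Without replicate 1 the 5 h value was 0.06, and without replicate 3 or 4 of BMDM-Nur77-KO it was called (adjusted p = 0.0358 and 0.0336). At 18 h the values were 669, 687, 834 and 622 CPM and 1015, 919.9, 1109 and 1462 CPM, which did not overlap (1.60-fold, log2 fold change 0.68, SE 0.14, adjusted p = 3.3e-04). Without replicate 4 of BMDM-Nur77-KO, the highest of these, the log2 fold change was 0.53 (adjusted p = 0.00338). The rise from 0 h was 5.45-fold at 1 h, 6.39-fold at 5 h and 2.37-fold at 18 h in BMDM-WT, and 4.01-fold, 6.24-fold and 3.06-fold in BMDM-Nur77-KO (all adjusted p at most 2.4e-09). The interaction at 18 h was not called (log2 fold change 0.37, SE 0.19, adjusted p = 0.28), except after GC correction (adjusted p = 1.3e-04).

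Klf7 (chr1:64029448-64122345), a close homologue of Klf6, had the widest range of the members followed here, with its highest and lowest group means both in BMDM-Nur77-KO. In BMDM-WT it was counted at 4.59, 5.21, 4.71 and 6.05 CPM at 0 h, 10.2 to 11.7 at 1 h, 12.5, 13.9, 13.0 and 13.3 at 5 h, followed by 1.65, 2.29, 1.91 and 2.24 at 18 h. In BMDM-Nur77-KO the values were 3.75, 3.81, 5.08 and 4.95 CPM at 0 h, 7.54 to 9.96 at 1 h, 19.9, 19.1, 17.3 and 15.3 at 5 h, followed by 0.536, 0.978, 1.40 and 0.896 at 18 h. The knockout libraries were thus all lower at 1 h, all higher at 5 h and all lower at 18 h. The 1 h difference was not called (log2 fold change -0.34, SE 0.13, adjusted p = 0.13), except when only the 1 h groups were fitted (adjusted p = 0.0395). The 5 h difference was 1.36-fold (log2 fold change 0.44, SE 0.13, adjusted p = 0.012) and was lost with GC correction (adjusted p = 0.0505) or when only the 5 h groups were fitted (0.0828). At 18 h Klf7 was 2.06-fold lower (log2 fold change -1.05, SE 0.22, adjusted p = 5.0e-04), resting on 6 to 20 counts per knockout library, and this call was kept in every alternative. From 5 to 18 h, Klf7 fell 6.49-fold in BMDM-WT and 18.2-fold in BMDM-Nur77-KO (adjusted p = 1.4e-15 and 2.1e-19).

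The interaction of Klf7 was called at 5 h (log2 fold change 0.67, SE 0.19, adjusted p = 0.047) and at 18 h (log2 fold change -0.82, SE 0.26, adjusted p = 0.046), close to the threshold in both cases. The 5 h call was lost without any of replicates 1 and 2 of BMDM-Nur77-KO at 0 h, replicates 1 and 2 of BMDM-Nur77-KO at 5 h, replicates 2, 3 and 4 of BMDM-WT at 0 h, or any BMDM-WT replicate at 5 h, with adjusted p from 0.0525 to 0.115, and with the replicate number as a block (0.072). It was also lost with either other expression filter (0.0574 and 0.0906), with summed transcripts (0.0626) and with only the groups compared (0.0987). The 18 h call was lost without any of replicates 3 and 4 of BMDM-Nur77-KO at 0 h, replicates 1, 2 and 4 of BMDM-Nur77-KO at 18 h, replicates 1, 2 and 3 of BMDM-WT at 0 h, or replicates 2, 3 and 4 of BMDM-WT at 18 h, with adjusted p from 0.0541 to 0.182, and with the block (0.0583). It was also lost without an expression filter (0.0882), with GC correction (0.0631), with only the groups compared (0.108) and with the DESeq2 Wald test (0.0627). Annotated antisense genes overlap Klf7 (Gm26649 and Gm13748), as they do Klf3 and Klf13, and the methods give the counting only as the tool's default settings, without spelling out how strand was treated.

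Klf3 (chr5:64803521-64832901), a repressor that recruits the corepressor CtBP, rose late. In BMDM-WT it was 29.7 to 36.1 CPM at 0 h and 31.6 to 35.1 at 1 h, then reached 77.4, 81.0, 87.4 and 83.8 CPM at 5 h and 59.6, 59.7, 79.1 and 61.9 CPM at 18 h. In BMDM-Nur77-KO it was 31.9 to 36.0 CPM at 0 h, 33.6 to 37.1 at 1 h, 133, 116, 82.1 and 80.4 at 5 h, followed by 77.1, 72.9, 76.9 and 105 at 18 h. The increase at 5 h was 2.52-fold and 3.09-fold (adjusted p = 1.4e-10 and 1.8e-12). At 18 h the genotypes overlapped in 1 wild-type library, and the difference was close to the threshold (log2 fold change 0.35, SE 0.13, adjusted p = 0.043). It was lost without replicate 4 of BMDM-Nur77-KO (0.22, adjusted p = 0.258), without replicate 1, 2 or 4 of BMDM-WT (adjusted p = 0.129, 0.12 and 0.108), with the replicate block (0.0619), and when only the 18 h groups were fitted (0.142). Conversely, the 5 h difference (log2 fold change 0.32, SE 0.13, adjusted p = 0.061) was called without replicate 3 or 4 of BMDM-Nur77-KO (adjusted p = 0.0147 and 0.0115) and with DESeq2 (0.0447), and fell to 0.17 without replicate 1.

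Klf10 (chr15:38291464-38300711) and Klf11 (chr12:24651371-24662782), the TGF-beta-inducible early-response members that recruit the Sin3 corepressor, differed in their course. Klf10 rose at 1 h and dropped at 5 h: in BMDM-WT it was 57.7, 61.9, 55.1 and 55.9 CPM at 0 h, 79.7, 93.1, 72.9 and 90.7 at 1 h, 26.5, 19.3, 19.5 and 21.7 at 5 h, followed by 39.7, 48.7, 49.3 and 39.7 at 18 h. In BMDM-Nur77-KO it was 59.8 to 65.6 CPM at 0 h, 77.2 to 82.6 at 1 h, 24.3 to 25.7 at 5 h, followed by 26.5, 26.5, 36.7 and 38.5 at 18 h. Only at 18 h did the libraries separate between genotypes (1.38-fold lower in BMDM-Nur77-KO, log2 fold change -0.47, SE 0.11, adjusted p = 0.0021), a call that was lost when only the 18 h groups were fitted (adjusted p = 0.0546). The interaction at 18 h was called (log2 fold change -0.60, SE 0.15, adjusted p = 0.0088) and was kept in every alternative. Klf10 has 3 RefSeq transcripts in the table, of which the kept one and a second had near-identical counts, and summing or exchanging transcripts changed none of the genotype calls for Klf10.

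Klf11 fell at each step. In BMDM-WT its CPM was 13.0, 10.1, 12.2 and 11.6 at 0 h, 5.54 to 8.34 at 1 h, 2.49 to 3.54 at 5 h, followed by 1.28, 1.33, 1.22 and 1.12 at 18 h. In BMDM-Nur77-KO it was 11.7, 13.7, 11.1 and 11.7 at 0 h, 6.40 to 8.58 at 1 h, 3.14 to 4.85 at 5 h, followed by 1.61, 1.60, 1.61 and 1.71 at 18 h. The decline from 0 to 18 h was 9.40-fold in BMDM-WT and 7.35-fold in BMDM-Nur77-KO (adjusted p = 2.7e-17 and 8.0e-17). All 4 knockout libraries exceeded all wild-type libraries at 18 h, on 13 to 23 counts per library, without a call (log2 fold change 0.40, SE 0.21, adjusted p = 0.26). At 5 h the difference was 0.42 (SE 0.16, adjusted p = 0.062) and was called without replicate 1 or 3 of BMDM-Nur77-KO (0.0431 and 0.0422) and with DESeq2 size factors (0.0482).

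Klf13 (chr7:63886351-63938915) and Klf16 (chr10:80567121-80577296), GC box-binding members of the same subgroup as Klf9, moved least. Klf13 had group means between 82.8 and 136 CPM, a 1.64-fold range. It rose in BMDM-WT at 18 h, from 87.0 to 109 CPM at 0 h to 127 to 144 CPM (log2 fold change 0.44, SE 0.13, adjusted p = 0.0037). In BMDM-Nur77-KO at 5 h it was 52.2, 79.6, 104 and 95.7 CPM, lowest in replicate 1, and no genotype difference was called at any time over all libraries. The 5 h difference (log2 fold change -0.30, SE 0.13, adjusted p = 0.093) was called without replicate 3 (-0.43, adjusted p = 0.0171) or 4 (-0.38, 0.0395) of BMDM-Nur77-KO, and was -0.13 without replicate 1. Its sign at 5 h in BMDM-Nur77-KO relative to 0 h changed with GC correction, from -0.24 to 0.04, neither of which was called, whereas it was called lower without replicate 3 (-0.37, adjusted p = 0.0156) or 4 (-0.32, 0.0442) at 5 h and was -0.08 without replicate 1. Klf16 was 15.9, 14.3, 14.8 and 13.0 CPM in BMDM-WT at 5 h and 9.32, 20.9, 31.5 and 28.3 CPM in BMDM-Nur77-KO, where replicate 1 was the lowest and the other 3 lay above every wild-type library (log2 fold change 0.64, SE 0.21, adjusted p = 0.028). Without replicate 1 the log2 fold change was 0.89 (adjusted p = 8.2e-05) and the interaction at 5 h, not called over all libraries (log2 fold change 0.83, SE 0.29, adjusted p = 0.13), became 1.08 (adjusted p = 0.00135). The 5 h genotype call was lost without replicate 3 (0.44, adjusted p = 0.106) or 4 (0.51, 0.0686) of BMDM-Nur77-KO, without replicate 2, 3 or 4 of BMDM-WT (adjusted p = 0.0616, 0.0537 and 0.0669), and when only the 5 h groups were fitted (0.256). At 0, 1 and 18 h the Klf16 libraries of both genotypes overlapped, with 7.01 to 18.0 CPM.

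Across the family, 6 of the 10 members had changed by 1 h of LPS. At 1 h, 5 members were higher than at 0 h in BMDM-WT (Klf2, Klf4, Klf6, Klf7 and Klf10) and 1 was lower (Klf11), with 20.3% of all tested genes called. In BMDM-Nur77-KO, the same 5 were higher and Klf11 lower, with 12.3% of all genes called. At 5 h, 3 members were higher (Klf3, Klf6 and Klf7) and 5 lower (Klf2, Klf4, Klf9, Klf10 and Klf11) in BMDM-WT, with 70.1% of all genes called, and in BMDM-Nur77-KO Klf16 was called higher as well, giving 4 and 5, with 71.4% of all genes called. At 18 h, 4 were higher and 5 lower in BMDM-WT (66.4% of all genes called), and in BMDM-Nur77-KO 4 were higher and 4 lower (69.5%). Both sets of 4 included Klf2, Klf3 and Klf6, with Klf13 in BMDM-WT and Klf4 in BMDM-Nur77-KO as the fourth. Between 1 and 5 h, 1 member rose and 5 fell in BMDM-WT (65.2% of all genes called), and 4 rose and 5 fell in BMDM-Nur77-KO (70.8%). In BMDM-WT, Klf6, Klf7, Klf13 and Klf16 were also called higher with GC correction (adjusted p = 1.7e-04, 0.0305, 0.0025 and 5.8e-04). The same 4 were called higher when only the groups compared were fitted (1.8e-04, 0.0091, 0.0084 and 0.0011). Between 5 and 18 h, 3 members rose and 5 fell in BMDM-WT (69.4% of all genes called), and 4 rose and 6 fell in BMDM-Nur77-KO (69.3%). The knockout rises of Klf10 and Klf13 and the knockout fall of Klf3 were lost when only the groups compared were fitted (0.0691, 0.0795 and 0.224). The shares at 5 and 18 h were near those of all genes. Several of these calls depended on which libraries were included. In BMDM-Nur77-KO, the 1 h call of Klf10 (0.33, adjusted p = 0.032) was lost without any of the 4 libraries at 0 h or without replicate 1, 3 or 4 at 1 h (adjusted p from 0.052 to 0.0927). The 18 h call of Klf2 (0.54, adjusted p = 0.015) was lost without replicate 3 at 18 h (0.065), and the 5 h call of Klf16 (0.65, adjusted p = 0.0063) without replicate 3 at 5 h (0.0558). The decline of Klf3 from 5 to 18 h (-0.34 in BMDM-WT and -0.31 in BMDM-Nur77-KO) was lost without replicate 1 or 2 of BMDM-WT at 18 h (0.0578 and 0.0561), and without replicate 1 or 2 at 5 h (0.222 and 0.109) or replicate 1, 2 or 3 at 18 h (0.0795, 0.102 and 0.0821) of BMDM-Nur77-KO. The interaction was called for none of the 10 members at 1 h with edgeR (2 members had an unadjusted p below 0.05, and 8 of all tested genes, 0.0715%, were called), for 2 at 5 h (3.12% of all genes) and for 3 at 18 h (9.43%).

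**Figure D4:**
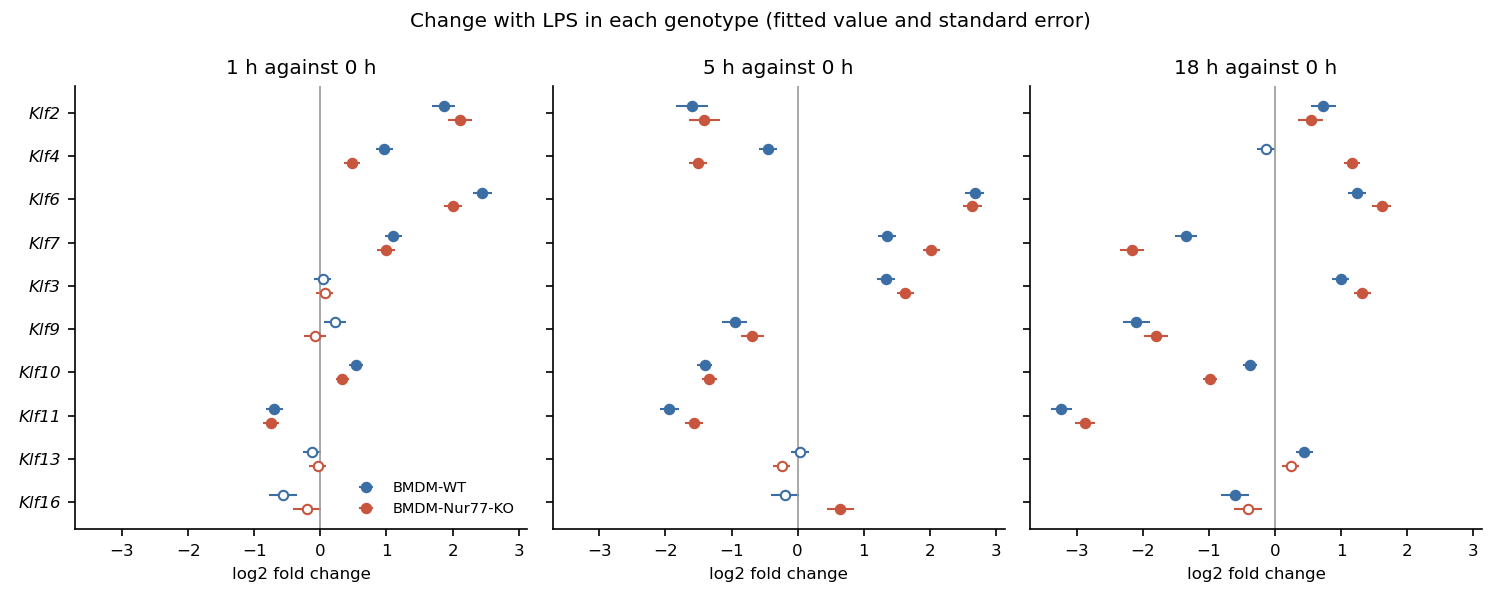
Log2 fold change of the 10 KLF genes at 1, 5 and 18 h of LPS relative to 0 h in BMDM-WT (blue) and BMDM-Nur77-KO (red); points are fitted values, bars standard errors, and filled points have an adjusted p below 0.05. At 18 h, Klf4 is at -0.13 in BMDM-WT and 1.17 in BMDM-Nur77-KO.

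Among 16 further KLF and SP genes, 5 were tested: Klf8, Sp1, Sp2, Sp3 and Sp4. The other 11, including Klf1, Klf5 and Klf15, did not reach the expression minimum. Klf8, a CtBP-binding repressor, was the one gene of this list called between genotypes. In BMDM-WT it was 2.14, 2.82, 2.43 and 2.91 CPM at 0 h, 2.85 to 5.12 at 1 h, 52.3, 47.4, 49.7 and 48.4 at 5 h, followed by 6.22, 7.43, 10.9 and 6.90 at 18 h. In BMDM-Nur77-KO it was 4.93, 4.25, 4.23 and 2.64 CPM at 0 h, 3.02 to 4.55 at 1 h, 75.0, 73.5, 65.5 and 62.5 at 5 h, followed by 17.3, 16.3, 18.5 and 21.8 at 18 h. The unstimulated libraries overlapped, although a difference was called (log2 fold change 0.63, SE 0.20, adjusted p = 0.035). All knockout libraries were above all wild-type libraries at 5 and 18 h (log2 fold changes 0.48 and 1.23, adjusted p = 0.011 and 4.0e-07). Its rise at 5 h was 19.0-fold in BMDM-WT and 17.2-fold in BMDM-Nur77-KO (adjusted p = 9.6e-20 and 8.0e-20). The median difference of the 5 genes between genotypes was 0.17, -0.16, 0.22 and 0.19 on the log2 scale at 0, 1, 5 and 18 h.

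Klf2 and Klf4 are known to be switched on by the kinase ERK5 (encoded by Mapk7) through MEF2 factors, which class IIa histone deacetylases hold in check. Of 10 genes listed for this route, 9 were tested. The list pooled kinase and MEF2 genes with the histone deacetylase genes Hdac5 and Hdac7. At 1 h, 1 was higher and 1 lower than at 0 h in BMDM-WT, and none was higher and 1 lower in BMDM-Nur77-KO. Of all tested genes, 20.3% and 12.3% were called, and the median log2 fold changes of the 9 were 0.06 and 0.02. At 5 h, all 9 were lower than at 0 h in BMDM-WT and all 9 in BMDM-Nur77-KO, where 40.1% and 39.3% of all tested genes were lower, and their median log2 fold changes were -1.10 and -1.06, beside -0.14 and -0.12 for all genes. The greatest decreases in BMDM-WT were those of Hdac5 (-3.14, from 50.5 to 58.6 to 4.31 to 9.50 CPM), Mef2c (-2.68, from 141 to 190.0 to 23.9 to 26.3 CPM) and Mef2d (-2.44). From 5 to 18 h, 8 of the 9 rose and none fell in BMDM-WT, where 36.1% of all tested genes rose. In BMDM-Nur77-KO, 7 rose and 2 fell, Mef2c among the latter (log2 fold change -0.996), with 35.2% of all genes rising. Mapk7 itself went from 19.0 to 22.1 CPM at 0 h to 6.48 to 9.26 at 5 h and 26.9 to 36.7 at 18 h in BMDM-WT. Between genotypes, 1 of the 9 was higher in unstimulated BMDM-Nur77-KO, none was called at 1 h, 3 were higher at 5 h and 3 were lower at 18 h, beside 12.7%, 6.53%, 24.4% and 21.7% of all tested genes called in either direction. Those lower at 18 h were Mef2c (-0.88, adjusted p = 7.9e-05, 27.7, 32.2, 42.6 and 27.6 against 17.3, 13.9, 16.9 and 22.7 CPM), Hdac5 (-0.64, adjusted p = 0.025) and Map3k3 (-0.28, adjusted p = 0.024).

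All 14 listed corepressors, coactivators and ubiquitin ligases of KLF proteins were tested. Between genotypes, 2 were higher in BMDM-Nur77-KO at 0 h, 1 lower at 1 h, 3 higher and 1 lower at 5 h, and 3 higher and 2 lower at 18 h. The shares at 0, 1 and 5 h were near those of all tested genes, of which 12.7%, 6.53% and 24.4% were called, and at 18 h 21.7% were. At 18 h the greatest differences were Fbxw7, a ubiquitin ligase subunit (0.77, adjusted p = 1.4e-06), the acetyltransferase gene Kat2b (0.72, adjusted p = 6.1e-08) and the ubiquitin ligase gene Wwp1 (-0.57, adjusted p = 0.0068). The median of the 14 was 0.14 at 18 h.

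Genes described elsewhere as direct KLF targets moved in both directions. Of the 11 listed, 10 were tested, and in BMDM-Nur77-KO 2 were higher at 0 h, 2 were higher and 1 lower at 1 h, 1 was higher and 3 lower at 5 h, and 3 were higher and 2 lower at 18 h, with a median of 0.05 at 18 h. Of all tested genes, 12.7%, 6.53%, 24.4% and 21.7% were called at these times. The greatest differences at 18 h were in Nos2, which encodes inducible nitric oxide synthase (1.52, 616 to 695 CPM in BMDM-WT and 1714 to 1985 in BMDM-Nur77-KO), the sphingosine-1-phosphate receptor gene S1pr1 (-1.36, 9.66 to 13.9 and 3.92 to 5.30 CPM) and the hypoxia factor gene Hif1a (1.07), with adjusted p values of 2.2e-09, 2.9e-09 and 9.5e-06. At 5 h Nos2 had been lower in the knockout (-0.66, adjusted p = 0.0014), whereas S1pr1 was lower at 1, 5 and 18 h. The genotype comparisons at 4 times share no libraries, but every LPS response within a genotype shares its 4 unstimulated libraries with the others.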

How the data were processed

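Strand-specific libraries from 32 BMDM samples were sequenced by the authors, aligned to mm10 with HISAT2 2.1.0 (per the submitters' processing notes, which also name CASAVA 1.8.2), filtered with SAMtools at a mapping quality above 15 and counted per RefSeq transcript with HOMER without normalization. The deposited values are estimated counts, in which each mate adds 0.5, and they were rounded to whole numbers here. RPKM was computed from these counts and transcript lengths. Samples were grouped by genotype and time from their titles, giving 8 groups of 4 libraries. One transcript per gene was kept, the one with the highest mean. Rows that could not be named held 0.233% to 1.37% of the counts and were left out. The 11186 genes with a mean above 1 RPKM in at least 1 group were tested with edgeR 4.0.16 in R 4.3.3 (TMM scaling, means model over all 32 libraries, quasi-likelihood F-test), in 17 contrasts with Benjamini-Hochberg adjustment. CPM values use the TMM-scaled library sizes. The fit was tested on simulated data.

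The alternatives were DESeq2 1.42.0 size factors and its Wald test, other expression filters and other choices of transcript. Others were the replicate number as a block, only the groups compared and the omission of each library of those groups. A fold limit on the counts of called members was also used (log2 fold change of 0.58 between genotypes and 1 for LPS). A lowess correction for GC content was chosen after seeing the data. Named genes were the 10 members, Nr4a1, the 3 genes nearest in pattern to each of the 4 members with the widest range, and at most 3 called genes with the greatest change per list and comparison. Outside this rule, Mapk7 was named as the gene that encodes ERK5. Precision was lowest for Klf7, Klf2 and Klf11, which rested on as few as 6, 8 and 13 counts in a library. The members and the lists were chosen with earlier results of these data known, so their counts are descriptions and not independent evidence. The promoter windows are from RefSeq (GRCm38.p6), the build that mm10 represents, and were found for 8 of the 10 members, all but Klf10 and Klf16.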

Additional observations from a re-analysis of the deposited data

Results flagged for a closer look

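In 6 of the 88 groups of 4 libraries checked, 1 library lay farther from the rest than expected at the 95% level of Dixon's test, and chance alone gives about 1 in 20 groups. These were Klf3 at 18 h, with 79.07 CPM in replicate 3 of BMDM-WT and 105.4 CPM in replicate 4 of BMDM-Nur77-KO, Klf4 at 18 h, with 62.36 CPM in replicate 3 of BMDM-Nur77-KO, and Klf6 at 1 h, with 1694 CPM in replicate 2 of BMDM-WT. The others were Klf9 at 0 h, with 15.85 CPM in replicate 2 of BMDM-WT, and Klf11 at 18 h, with 1.711 CPM in replicate 4 of BMDM-Nur77-KO.

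For 3 members the change from 0 h differed between genotypes by the interaction test. The knockout response of Klf4 differed by -1.06 on the log2 scale at 5 h and by 1.30 at 18 h. That of Klf7 was higher by 0.67 at 5 h and lower, at -0.82, at 18 h, and that of Klf10 was lower, at -0.60, at 18 h. Among these, the Klf7 calls were each lost in 16 of 25 alternatives and those of Klf4 and Klf10 in none.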

How the results depend on the processing

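Of the 170 log2 fold changes of the 10 members, 96 were called. Of these, 82 stayed called in the same direction in every alternative fit, while 24 of the 74 others were called in at least 1. The fold limit was applied only to the counts of called members and does not enter these numbers. Values within 1 SE of 0 were given no direction, and 23 of them, counting those of Nr4a1, changed sign in some alternative. The GC correction reversed Klf13 in BMDM-Nur77-KO at 5 h, to 0.0407 relative to 0 h and 0.0944 relative to 1 h, and shifted the median of all genes by up to 0.145 (BMDM-WT, 5 against 0 h). For these and the following changes the cause was not tested. Between genotypes at 1 h, the count of called members went from 1 to 2 with GC correction, 3 with only the groups compared and 0 with the fold limit. At 5 h it went from 3 to 1 with only the groups compared, and ranged from 2 to 6 without 1 library. For LPS against 0 h, the fold limit left 3 (1 h) and 4 (18 h) members in BMDM-WT and 2 (1 h) in BMDM-Nur77-KO, and for 5 against 1 h it left 5 in BMDM-Nur77-KO, whereas GC correction and only the groups compared both gave 10 instead of 6 in BMDM-WT. The interaction at 1 h was called for 1 member with only the groups compared. At 5 h it was called for 1 member instead of 2 with either other filter, with summed transcripts, with only the groups compared and with the replicate block, and for 1 to 2 without 1 library. No pairing by replicate number was seen in the median correlation of deviations, -0.023 for same-number pairs (-0.70 to 0.47) and 0.0041 for other pairs. Of 112 same-number pairs, 29 had correlated deviations above 0.1, and 7 of 32 libraries correlated best with their own number. Whether samples shared an animal cannot be told from these values. With the replicate block the call was lost for Klf3 between genotypes at 18 h (adjusted p = 0.0619), Klf10 at 1 h in BMDM-Nur77-KO (0.0505) and the Klf7 interactions (0.072 and 0.0583).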

Other observations

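The genes whose group means over the 8 groups followed a member most closely were found by the root mean square difference of centred log2 CPM, a description over 8 means with no test. For Klf2 these were Pim3 (0.302), a kinase gene, Slc38a2 (0.426), an amino acid transporter gene, and Herpud1 (0.441), a gene of endoplasmic reticulum protein degradation, beside a median of 1.29 over all genes. Pim3 averaged 6.11, 28.7, 2.70 and 8.53 CPM at 0, 1, 5 and 18 h in BMDM-WT. For Klf6 they were the chemokine gene Ccl2 (0.257), the transcription factor gene Nfil3 (0.275) and Psd (0.282), beside a median of 1.16. For Klf7 they were Slc39a8 (0.432), a zinc transporter gene, Phldb1 (0.460) and Mmp10 (0.473), beside 1.39, and for Klf11 Cep68 (0.274), Dkc1 (0.275) and 2700099C18Rik (0.277), beside 1.16. Of these, Mmp10 and 2700099C18Rik were near the floor, with group means of 0 to 1.82 and 0.308 to 3.53 CPM.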
